A study of Homo sapiens with 4 samples.

Results

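Integrins, collagens, laminins and the genes that cut, cross-link or decorate the extracellular matrix were followed in MDA-MB-231, a human cell line from a triple-negative breast tumour, with and without silencing of the poly(C)-binding protein PCBP2. Members were chosen by gene symbol alone: integrin alpha and beta chains, collagen alpha chains, laminin chains, matrix metalloproteinases (MMP), their tissue inhibitors (TIMP), lysyl oxidases, ADAM and ADAMTS proteins, and by name FN1, TNC, SPARC, TGFBI, ABI3BP and CD44. The choice held 54 of the 7698 listed genes. SPARC was not among them and was not analysed here. By role they were 5 integrin alpha and 3 integrin beta chains, 10 collagen chains, 6 laminin chains, 2 MMPs, 3 TIMPs, 3 lysyl oxidases, 6 ADAMs, 7 ADAMTS or ADAMTS-like genes, 4 matrix glycoproteins and CD44. The other 4 were taken in by the letters of their symbols and have none of these roles. COL4A3BP encodes a ceramide transfer protein and ITGB1BP1 a protein that binds the tail of integrin beta 1. ITGB3BP encodes a centromere protein, and MMP24-AS1 is transcribed opposite MMP24.

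Poly(A)-selected RNA was sequenced in 2 libraries of cells whose PCBP2 was silenced by RNA interference (siPCBP2) and in 2 libraries of untreated cells of the same line. A treatment field of the silenced cells speaks of PCBP2 itself being transfected, against their titles and source names; the titles were followed. The labels name no control RNA for the untreated cells, so giving an RNA and silencing PCBP2 cannot be told apart, and they do not say whether the libraries of a group were separate cultures, so p-values reflect library-to-library spread alone, possibly a technical one. PCBP2 had 16.6 and 16.7 FPKM in siPCBP2 cells, against 101 and 92.9 FPKM in untreated cells (5.83-fold lower, adjusted p = 0.0119 by limma), where FPKM are fragments scaled to transcript length and library total, a unit inferred from the values. Of 8 genes that mark this line, VIM, CD44, AXL and EGFR among them, 8 were listed, with 11.5 to 536 FPKM. None of 5 luminal markers, 9 fibroblast markers or 5 endothelial markers was listed, and 1 of 7 immune and blood markers was, the lysosomal protein CD68, at 35.2 and 38.7 FPKM in siPCBP2 and 28.7 and 29.1 FPKM in untreated cells. Sequencing depth is unknown, because the table gives no counts.

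Integrins are pairs of an alpha and a beta chain that span the membrane and tie the matrix to the actin or keratin skeleton. Each pair has its own ligands: alpha 5 beta 1 binds fibronectin, alpha 2 beta 1 collagen, alpha 3 beta 1 and alpha 6 beta 4 laminin, and alpha V pairs bind vitronectin and fibronectin. Laminins and type IV collagen form basement membranes, lysyl oxidases cross-link collagen, and MMPs and ADAMs cleave matrix and cell surface proteins, held back by TIMPs. PCBP2 binds C-rich stretches of RNA, and proteins of its family are known to bind and steady the mRNA of the collagen chain COL1A1 in liver stellate cells; COL1A1 was not analysed here.

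No member passed an adjusted p of 0.05. Each gene was tested with limma on log2(FPKM + 1), and p-values were adjusted by the Benjamini-Hochberg method over all 7689 genes tested, of which 4, or 0.052%, passed. The lowest adjusted p among members by limma was 0.0955, for COL13A1. At an unadjusted p under 0.05, 7 of the 54 members were higher in siPCBP2 cells (12.96%), against 5.67% of all genes tested, and 6 were lower (11.1%), against 9.73% of all genes. After quantile normalization the split was 9 higher and 5 lower among members, against 7.53% higher and 7.96% lower over all genes. The higher ones were ABI3BP, COL17A1, ADAM19, ADAMTS9, ADAMTS12, ITGA5 and COL12A1, and the lower ones COL13A1, ITGB4, LOXL4, ITGA6, MMP14 and LOXL2. Both siPCBP2 libraries lay above both untreated libraries for 13 members (24.1%, against 19.7% of all genes) and below both for 14 (25.9%, against 29.4% of all genes). The members under an unadjusted p of 0.05, 7 higher and 6 lower, were all among these. Their non-overlap is therefore no evidence separate from that p. The median log2 fold change was -0.02 over the members and -0.04 over all genes tested. It was 0.03 over the members after quantile normalization.

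**Figure D1:**
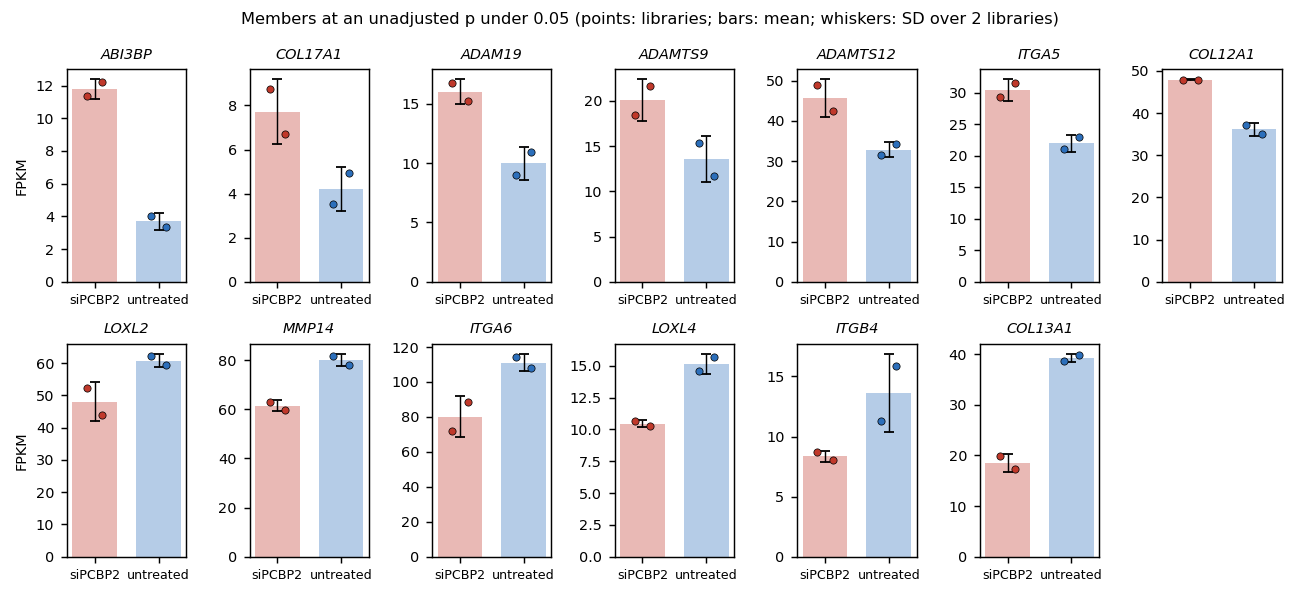
The 13 members at an unadjusted p under 0.05, in FPKM on axes that start at 0, with siPCBP2 left of untreated; points are libraries, bars means and whiskers the SD over 2 libraries. ABI3BP is at 11.4 and 12.2 FPKM in siPCBP2 cells and at 4.05 and 3.34 FPKM in untreated cells, and COL13A1 is at 19.8 and 17.2 FPKM against 38.7 and 39.7 FPKM.

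ABI3BP was farthest above and COL13A1 farthest below its untreated level among the 54 members. ABI3BP, a matrix protein that binds the actin regulator ABI3 and is also known as TARSH, had 11.4 and 12.2 FPKM in siPCBP2 cells, against 4.05 and 3.34 FPKM in untreated cells. Its mean was 3.19-fold higher, 11.8 ± 0.596 against 3.70 ± 0.503 FPKM (SD, n = 2 each). The log2 fold change was 1.45 (SE 0.17), with an adjusted p of 0.0967 by limma. ABI3BP passed the alternative 5 FPKM filter only through its siPCBP2 libraries, so that fit is no separate check of it. COL13A1, a collagen that spans the plasma membrane and sits at cell-matrix contacts, had 19.8 and 17.2 FPKM in siPCBP2 cells, against 38.7 and 39.7 FPKM in untreated cells. It was 2.12-fold lower, 18.5 ± 1.82 against 39.2 ± 0.710 FPKM, with a log2 fold change of -1.05 (SE 0.12), and the adjusted p was 0.0955 by limma. The groups overlapped for neither gene. Together with ADAM19, they were the 3 members of the 13 that stayed under an unadjusted p of 0.05 by limma in each of 11 alternative fits, where ABI3BP ranged from 1.34 to 1.65 and COL13A1 from -1.14 to -0.95 in log2 fold change.

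ABI3BP (ENSG00000154175) lies on the minus strand of chromosome 3 (100749156 to 100993515, hg38), and COL13A1 (ENSG00000197467) on the plus strand of chromosome 10 (69801931 to 69964275). Their promoter windows from RefSeq (GRCh38.p14), with 250 bases before and 50 after the annotated start, are printed with that of ITGA5, the fibronectin receptor chain, because these members have the largest differences or carry the integrin contrast. Each reads 5′ to 3′ on the strand of its gene, at chr3:100993372-100993671, chr10:69801656-69801955 and chr12:54419217-54419516. Capitals mark matches on either strand to TGANTCA for AP-1, to GGAATG for the TEAD family, to GGGCGG for the SP1 and KLF family and to TATAAA for the TATA box, and no matches overlap in these windows.
ABI3BP: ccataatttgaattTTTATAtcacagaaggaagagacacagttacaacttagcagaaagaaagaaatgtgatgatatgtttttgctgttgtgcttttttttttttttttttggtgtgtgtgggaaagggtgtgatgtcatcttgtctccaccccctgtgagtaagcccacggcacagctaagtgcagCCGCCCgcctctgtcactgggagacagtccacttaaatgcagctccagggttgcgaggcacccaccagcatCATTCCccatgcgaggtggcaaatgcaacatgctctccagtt
COL13A1: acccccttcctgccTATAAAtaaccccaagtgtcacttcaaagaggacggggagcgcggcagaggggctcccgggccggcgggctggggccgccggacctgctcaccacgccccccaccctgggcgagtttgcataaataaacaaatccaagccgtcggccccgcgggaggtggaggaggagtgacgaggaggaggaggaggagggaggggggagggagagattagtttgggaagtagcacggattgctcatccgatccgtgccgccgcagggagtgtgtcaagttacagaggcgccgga
ITGA5: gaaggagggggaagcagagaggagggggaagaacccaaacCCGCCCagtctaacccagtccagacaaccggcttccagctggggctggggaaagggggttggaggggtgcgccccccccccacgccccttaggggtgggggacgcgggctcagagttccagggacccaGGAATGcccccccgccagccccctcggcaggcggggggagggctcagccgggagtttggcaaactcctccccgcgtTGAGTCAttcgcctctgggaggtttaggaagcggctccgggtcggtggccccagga

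The ABI3BP window held the letters of TEAD, SP1 and TATA motifs, that of ITGA5 those of AP-1 starting 6 bases before the start, of TEAD 82 and of SP1 210 bases before it, and that of COL13A1 a TATA match 236 bases before it. RefSeq windows were matched for 41 of the 54 members. AP-1 letters stood in 3 of the 41 (7.32%), against 7.76% of the first windows of 27305 genes and 4.27% of those of 6205 tested genes. TEAD letters stood in 7 (17.1%, against 14.0% and 10.8%), SP1 letters in 34 (82.9%, against 44.6% and 72.5%) and TATA letters in 5 (12.2%, against 11.95% and 5.08%). A match describes letters in these windows and shows no binding.

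Among the 8 integrin chains, alpha 5 was higher at an unadjusted p under 0.05, while alpha 6 and beta 4, which together form the laminin receptor of hemidesmosomes, were lower. Over all genes tested, 5.67% were higher and 9.73% lower. ITGA5 had 29.2 and 31.6 FPKM in siPCBP2 cells, against 21.0 and 22.9 FPKM in untreated cells. ITGA6 had 71.8 and 88.4 FPKM in siPCBP2 cells, against 114 and 108 FPKM in untreated cells. ITGB4 had 8.69 and 8.05 FPKM in siPCBP2 cells, against 11.3 and 15.9 FPKM in untreated cells. For each of these 3 chains the groups did not overlap, with the untreated ITGB4 libraries the most spread. The log2 fold changes by limma were 0.45 for ITGA5 (SE 0.12, adjusted p = 0.222), -0.47 for ITGA6 (SE 0.13, adjusted p = 0.229) and -0.62 for ITGB4 (SE 0.19, adjusted p = 0.249). The ratio of ITGA5 to ITGA6 was 0.407 and 0.358 in siPCBP2 cells, against 0.184 and 0.213 in untreated cells. Its separation follows from the opposite differences of these chains and is no further evidence. Without untreated 1, ITGA5 (0.39) and ITGA6 (-0.43) were no longer under an unadjusted p of 0.05, nor was ITGB4 without siPCBP2 2 (-0.57) or without untreated 2 (-0.39). Exons of ITGA6 overlap those of 3 noncoding genes on the other strand in GENCODE 29, and those of ITGA5 overlap 1.

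ITGA5 (ENSG00000161638) lies on chromosome 12 at 54395261 to 54419460, minus strand, ITGA6 (ENSG00000091409) on chromosome 2 at 172427354 to 172506282, plus strand, and ITGB4 (ENSG00000132470) on chromosome 17 at 75721328 to 75757818, plus strand. The remaining 5 chains did not pass an unadjusted p of 0.05. ITGB1, the partner of most alpha chains, had 217 and 259 FPKM in siPCBP2 cells, against 249 and 289 FPKM in untreated cells. ITGA3, a laminin receptor chain, had 158 and 133 FPKM in siPCBP2 cells, against 158 and 156 FPKM in untreated cells. In both, the groups overlapped, and the sign of the ITGA3 difference turned without siPCBP2 2. ITGAV had 26.6 and 26.8 FPKM in siPCBP2 cells, against 25.1 and 23.3 FPKM in untreated cells. Its partner ITGB5 had 28.6 and 27.6 FPKM in siPCBP2 cells, against 27.0 and 27.2 FPKM in untreated cells. The collagen receptor chain ITGA2 had 12.2 and 11.4 FPKM in siPCBP2 cells, against 15.7 and 13.5 FPKM in untreated cells. Groups did not overlap for these last 3, but the log2 differences, 0.14, 0.05 and -0.28, were close to or within 2 SE (0.11, 0.11 and 0.14). Counting all 8 chains, both siPCBP2 libraries lay below both untreated libraries for 3 and above both for 3 (37.5% each). The shares over all genes were 29.4% below and 19.7% above.

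In FPKM, a level per transcript length, ITGB1 was the most abundant integrin chain in each of the 4 libraries, followed by ITGA3 and ITGA6. ITGB5, ITGA5 and ITGAV came next, between 21.0 and 31.6 FPKM, and changed places between libraries, as did ITGA2 and ITGB4 at the low end. The 5 alpha chains summed to 298 and 291 FPKM in siPCBP2 cells and to 334 and 324 FPKM in untreated cells. ITGB1 stood at 0.726 and 0.891 of that sum in siPCBP2 cells and at 0.744 and 0.893 in untreated cells. CD44, the hyaluronan receptor and the most abundant member, ranked 91 of all listed genes by mean level. It had 427 and 267 FPKM in siPCBP2 cells, against 328 and 352 FPKM in untreated cells. The siPCBP2 libraries thus lay on both sides of the untreated ones. The CD44 log2 fold change of -0.01 (SE 0.23) became 0.09 after quantile normalization and 0.02 after scaling to a common total. It was 0.33 without siPCBP2 2 and -0.35 without siPCBP2 1, so its direction rested on which siPCBP2 library was kept. CD44 splice forms were not separated by these values.

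**Figure D2:**
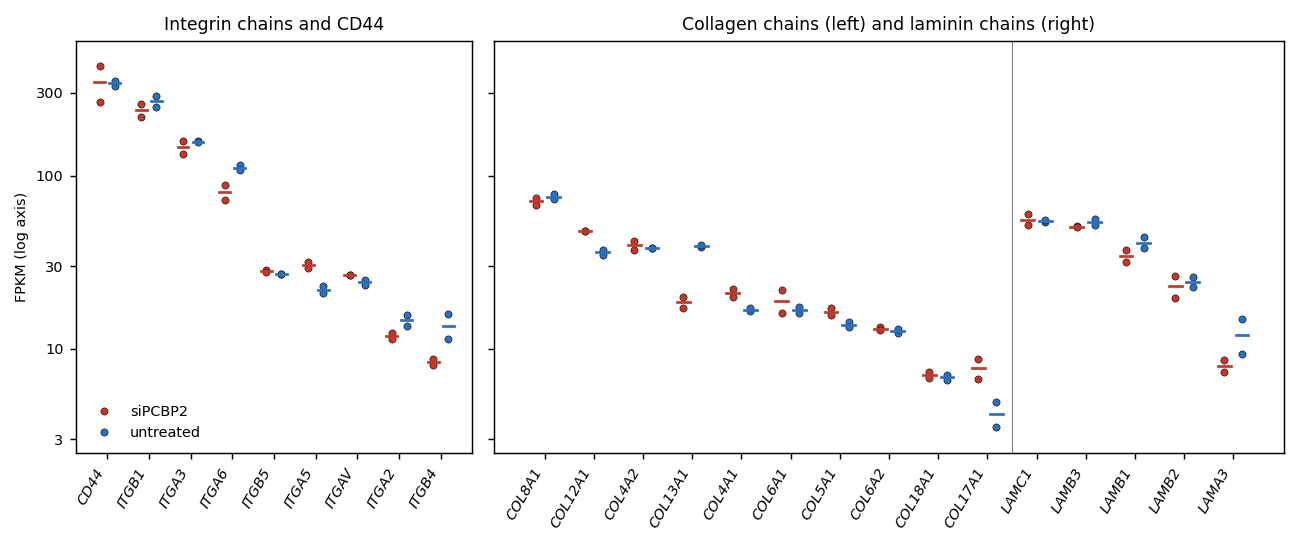
FPKM on a log axis for integrin chains and CD44 (left panel) and for collagen and laminin chains (right panel), siPCBP2 points left of untreated points for each gene; points are libraries and short lines means over 2 libraries. ITGA6 sits at 71.8 and 88.4 FPKM in siPCBP2 cells under 114 and 108 FPKM in untreated cells, and CD44 spreads from 267 to 427 FPKM within siPCBP2 cells.

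Of the 10 collagen chains, 2 were higher, COL12A1 and COL17A1, and 1 lower, COL13A1, at an unadjusted p under 0.05, where 5.67% of all genes tested were higher and 9.73% lower. The log2 difference was positive for 8 of the 10, of which COL4A2, COL6A1, COL6A2 and COL18A1 lay within 1 SE of 0, and negative for COL13A1 and COL8A1. COL8A1 turned positive (0.01) after quantile normalization, and COL4A2, COL6A1 and COL18A1 turned negative without siPCBP2 1. COL12A1, a fibril-associated collagen, had 48.0 and 47.8 FPKM in siPCBP2 cells, against 37.3 and 34.97 FPKM in untreated cells. Its log2 fold change was 0.40 (SE 0.11, adjusted p = 0.225 by limma). COL17A1, the transmembrane collagen of hemidesmosomes, had 8.75 and 6.69 FPKM in siPCBP2 cells, against 3.51 and 4.92 FPKM in untreated cells. Its log2 fold change was 0.74 (SE 0.23, adjusted p = 0.249 by limma), opposite in sign to those of ITGA6 and ITGB4, with which its protein assembles. Groups overlapped for neither chain, and the ratio of COL12A1 to COL13A1 was 2.42 and 2.77 in siPCBP2 cells, against 0.963 and 0.880 in untreated cells. The separation of this ratio follows from the opposite differences of the chains and is no further evidence. COL12A1 was no longer under an unadjusted p of 0.05 without untreated 2 (0.35), nor was COL17A1 without siPCBP2 1 (0.57) or without untreated 1 (0.55).

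COL12A1 (ENSG00000111799) lies on chromosome 6 at 75084326 to 75206051 and COL17A1 (ENSG00000065618) on chromosome 10 at 104031286 to 104086002, both on the minus strand. COL8A1, a short-chain collagen of subendothelial matrix, was the most abundant collagen chain, with 74.5 and 67.3 FPKM in siPCBP2 cells and 72.8 and 77.8 FPKM in untreated cells. The type V chain COL5A1 averaged 16.4 ± 1.04 FPKM in siPCBP2 cells and 13.8 ± 0.693 FPKM in untreated cells (SD, n = 2 each), without overlap, and its log2 difference of 0.24 (SE 0.13) did not pass. The type VI chains COL6A1 and COL6A2, neighbours on chromosome 21 with 93.0 kb between them, had log2 differences of 0.15 and 0.04, and COL18A1, the source of endostatin, 0.04. The sum of the 10 chains was 275 and 247 FPKM in siPCBP2 cells, against 257 and 263 FPKM in untreated cells, so that the groups overlapped.

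The chains of type IV collagen, which form a trimer of COL4A1 and COL4A2, are read from opposite strands of one promoter on chromosome 13. COL4A1 had 22.1 and 19.8 FPKM in siPCBP2 cells, against 16.5 and 17.1 FPKM in untreated cells. COL4A2 had 41.9 and 37.0 FPKM in siPCBP2 cells, against 37.9 and 38.0 FPKM in untreated cells. The groups did not overlap for COL4A1, with a log2 difference of 0.30 (SE 0.12, adjusted p = 0.344 by limma), and overlapped for COL4A2, with 0.05 (SE 0.12, adjusted p = 0.859). After quantile normalization and after scaling to a common total COL4A1 was under an unadjusted p of 0.05, with 0.33 in both. The ratio of COL4A2 to COL4A1 was 1.90 and 1.87 in siPCBP2 cells, against 2.30 and 2.22 in untreated cells. In RefSeq the starts lie 127 bases apart and their windows share 226 bases. The COL4A2 window (GRCh38.p14, chr13:110307034-110307333, plus strand) is given with the 126 bases between the starts in capitals, of which 80.2% are G or C; COL4A1 is read leftwards from the base before the capitals.
COL4A2: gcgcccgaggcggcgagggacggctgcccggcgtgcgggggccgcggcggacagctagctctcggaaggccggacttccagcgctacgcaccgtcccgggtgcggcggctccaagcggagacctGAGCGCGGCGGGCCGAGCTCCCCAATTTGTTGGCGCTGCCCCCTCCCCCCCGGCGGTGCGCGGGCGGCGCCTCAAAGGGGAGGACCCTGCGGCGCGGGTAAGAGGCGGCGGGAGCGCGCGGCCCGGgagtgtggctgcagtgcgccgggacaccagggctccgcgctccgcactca

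Laminin chains assemble into the heterotrimers that integrins alpha 3 and alpha 6 bind. Of the 5 chains described here, 4 had a negative log2 fold change, but none passed an unadjusted p of 0.05. For 3 of the 5, LAMA3, LAMB1 and LAMB3, both siPCBP2 libraries lay below both untreated libraries, where 29.4% of all genes did. LAMA3, an alpha chain of epithelial basement membranes, had 8.56 and 7.34 FPKM in siPCBP2 cells, against 9.31 and 14.8 FPKM in untreated cells. LAMB3, a beta chain that pairs with it, averaged 50.7 ± 0.341 FPKM in siPCBP2 cells and 53.98 ± 3.09 FPKM in untreated cells (SD, n = 2 each). Their log2 differences were -0.52 (SE 0.24) and -0.09 (SE 0.11), and that of LAMA3 was -0.82 without untreated 1 and -0.21 without untreated 2. LAMB3 was thus several times as abundant per length as LAMA3. LAMB1 averaged 34.2 ± 3.83 FPKM in siPCBP2 cells and 41.0 ± 4.37 FPKM in untreated cells, and LAMC1, its partner in many laminins and the most abundant laminin chain, 55.7 ± 5.46 and 54.7 ± 0.608 FPKM. LAMB2 averaged 23.1 ± 4.71 and 24.3 ± 2.19 FPKM, and its difference turned positive without siPCBP2 2. The ratio of LAMC1 to LAMB1 was 1.61 and 1.64 in siPCBP2 cells, against 1.23 and 1.45 in untreated cells. The log2 difference of LAMC1 was 0.02 (SE 0.12), and it turned negative without siPCBP2 1.

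The other matrix glycoproteins varied little between groups. Fibronectin, FN1, had 101 and 90.2 FPKM in siPCBP2 cells, against 92.9 and 79.2 FPKM in untreated cells. TGFBI, a secreted integrin ligand induced by TGF-beta, had 45.6 and 37.7 FPKM in siPCBP2 cells, against 39.2 and 41.2 FPKM in untreated cells. Tenascin C, TNC, had 7.74 and 6.81 FPKM in siPCBP2 cells, against 7.33 and 10.2 FPKM in untreated cells. Groups overlapped for all 3, and the log2 differences were 0.16 (SE 0.13), 0.04 (SE 0.13) and -0.23 (SE 0.20).

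Of the enzymes that cut matrix, 1 of the 2 listed MMPs was lower and 3 of the 10 ADAM and ADAMTS genes with a protease domain were higher at an unadjusted p under 0.05, where 9.73% of all genes tested were lower and 5.67% higher. MMP14, the membrane-anchored collagenase that also activates MMP2, had 63.0 and 59.9 FPKM in siPCBP2 cells, against 81.6 and 78.2 FPKM in untreated cells. Its log2 fold change was -0.37 (SE 0.10, adjusted p = 0.228 by limma), and without untreated 1, at -0.34, it was no longer under an unadjusted p of 0.05. MMP1, interstitial collagenase, averaged 43.7 ± 1.59 FPKM in siPCBP2 cells and 50.1 ± 2.78 FPKM in untreated cells (SD, n = 2 each), a log2 difference of -0.19 (SE 0.11) that did not pass. The MMP14 gene (ENSG00000157227) occupies 22836557 to 22849027 of chromosome 14, plus strand. Among inhibitors, TIMP1 had 129 and 86.2 FPKM in siPCBP2 cells, against 135 and 113 FPKM in untreated cells. Its log2 difference was -0.22 (SE 0.21), with -0.51 without siPCBP2 1 and 0.06 without siPCBP2 2. TIMP2, which MMP14 needs to bind proMMP2, averaged 48.8 ± 0.806 and 49.2 ± 8.41 FPKM, and TIMP3, which is bound to matrix, 28.8 ± 2.32 and 29.3 ± 0.519 FPKM. Groups overlapped for the 3 TIMPs, and the signs of TIMP2 and TIMP3 turned to 0.06 and 0.01 after quantile normalization and to 0.03 and 0.01 after scaling to a common total. The ratio of MMP14 to TIMP2 was 1.31 and 1.21 in siPCBP2 cells, against 1.89 and 1.42 in untreated cells.

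ADAM19, a membrane metalloproteinase known to shed neuregulin, had 16.7 and 15.3 FPKM in siPCBP2 cells, against 9.01 and 10.97 FPKM in untreated cells. ADAMTS12, a secreted protease that cleaves cartilage oligomeric matrix protein, had 49.0 and 42.4 FPKM in siPCBP2 cells, against 31.5 and 34.2 FPKM in untreated cells. ADAMTS9, which cleaves versican and aggrecan, had 18.4 and 21.7 FPKM in siPCBP2 cells, against 15.3 and 11.7 FPKM in untreated cells. In all 3 the groups did not overlap. The log2 fold changes by limma were 0.63 for ADAM19 (SE 0.15, adjusted p = 0.198), 0.46 for ADAMTS12 (SE 0.13, adjusted p = 0.229) and 0.54 for ADAMTS9 (SE 0.17, adjusted p = 0.264). Over the 11 alternative fits, that of ADAM19 ranged from 0.50 to 0.76 and was lowest without untreated 1. ADAMTS12 was no longer under an unadjusted p of 0.05 without siPCBP2 1 (0.36) or without untreated 1 (0.40), nor was ADAMTS9 without siPCBP2 2 (0.43) or without untreated 2 (0.36). ADAM19 (ENSG00000135074) lies on chromosome 5 at 157395534 to 157575775, ADAMTS12 (ENSG00000151388) on chromosome 5 at 33523535 to 33892192, and ADAMTS9 (ENSG00000163638) on chromosome 3 at 64515654 to 64688000, all on the minus strand. Exons of ADAM19 overlap those of the coding gene CYFIP2 on the other strand, and those of ADAMTS9 overlap ADAMTS9-AS1.

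The other ADAMs split in both directions. ADAM17, which sheds TNF and EGFR ligands, averaged 26.0 ± 0.859 FPKM in siPCBP2 cells and 22.4 ± 0.276 FPKM in untreated cells (SD, n = 2 each), without overlap (log2 difference 0.21, SE 0.11, adjusted p = 0.423 by limma). Its relative ADAM10, which sheds Notch and cadherins, had 39.1 and 19.8 FPKM in siPCBP2 cells, against 23.0 and 19.1 FPKM in untreated cells. The difference of ADAM10 rested on siPCBP2 1. The log2 fold change was 0.39 with all libraries, -0.08 without siPCBP2 1 and 0.87 without siPCBP2 2. ADAM9, the most abundant ADAM, had 62.2 and 64.7 FPKM in siPCBP2 cells, against 75.2 and 72.9 FPKM in untreated cells, without overlap (log2 difference -0.22, SE 0.10, adjusted p = 0.364 by limma). ADAM8 and ADAM15 had log2 differences of -0.31 (SE 0.16) and -0.13 (SE 0.14). ADAMTS6 and ADAMTS16, at a mean of 6.66 and 9.97 FPKM over the 4 libraries, differed by 0.32 (SE 0.31) and -0.39 (SE 0.26). ADAMTS6 was at 0.74 without untreated 2 and turned negative without untreated 1 (-0.11), and ADAMTS16 was at -0.68 without siPCBP2 1 and at -0.10 without siPCBP2 2. The ADAMTS-like genes, which lack the protease domain, were all low, with means of 4.19 to 7.50 FPKM over the 4 libraries, with log2 differences of 0.28 for ADAMTSL1 and -0.14 each for ADAMTSL4 and ADAMTSL5.

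The lysyl oxidases, which cross-link collagen and elastin through oxidised lysines, were lower for 2 of 3 genes at an unadjusted p under 0.05, where 9.73% of all genes tested were. LOXL4 had 10.6 and 10.2 FPKM in siPCBP2 cells, against 14.6 and 15.7 FPKM in untreated cells. LOXL2, the most abundant of the family here, had 52.3 and 43.9 FPKM in siPCBP2 cells, against 62.1 and 59.5 FPKM in untreated cells. Groups overlapped for neither. The log2 fold changes by limma were -0.49 for LOXL4 (SE 0.13, adjusted p = 0.221) and -0.34 for LOXL2 (SE 0.13, adjusted p = 0.308). LOX itself averaged 10.3 ± 0.229 FPKM in siPCBP2 cells and 10.6 ± 0.303 FPKM in untreated cells (SD, n = 2 each), with overlapping groups. The sum of the 3 was 73.3 and 64.3 FPKM in siPCBP2 cells, against 87.1 and 85.9 FPKM in untreated cells. LOXL4 was no longer under an unadjusted p of 0.05 without untreated 2 (-0.44). LOXL2 was no longer under it after quantile normalization (-0.29), without a mean-variance trend, or without siPCBP2 2 (-0.21), untreated 1 (-0.31) or untreated 2 (-0.37). LOXL4 (ENSG00000138131) lies on chromosome 10 at 98247690 to 98268250 and LOXL2 (ENSG00000134013) on chromosome 8 at 23297189 to 23425328, both on the minus strand. Exons of LOXL2 overlap those of the coding gene ENTPD4 on the same strand, so its value depends on how fragments were divided.

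**Figure D3:**
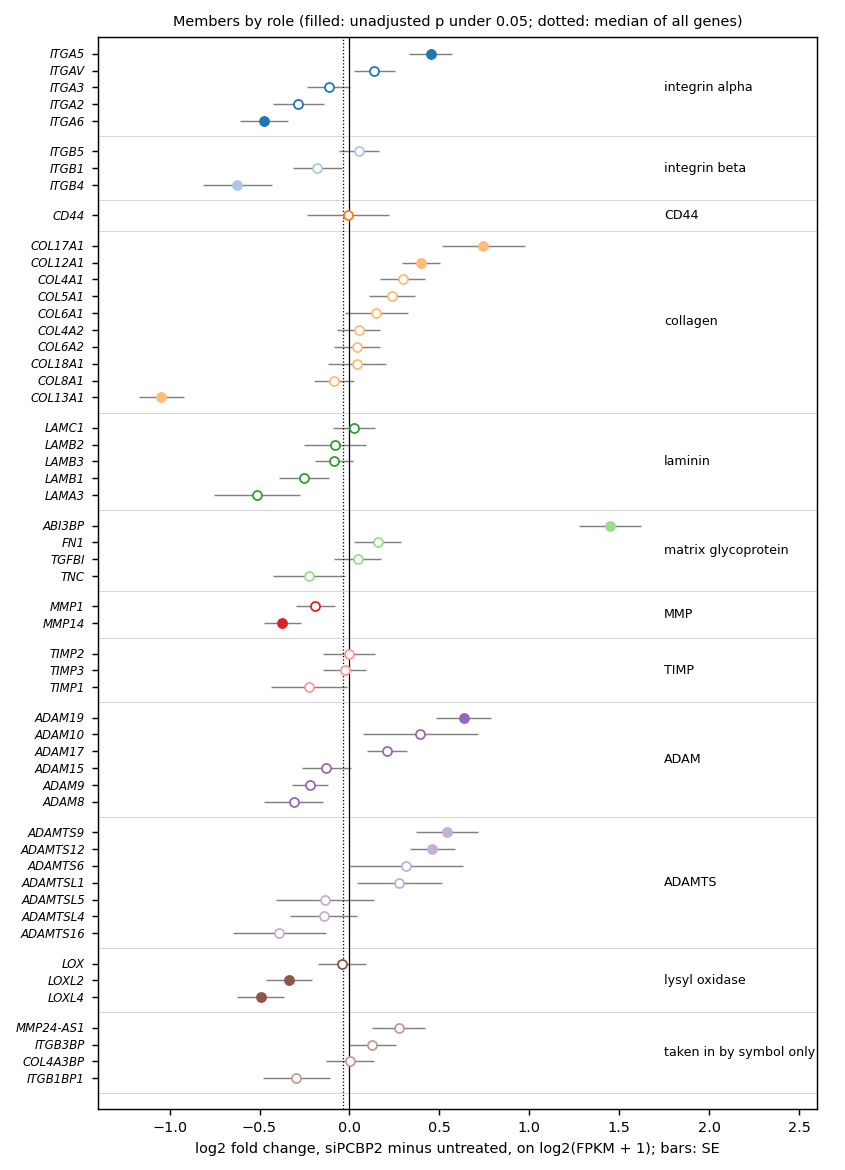
Log2 fold changes (siPCBP2 minus untreated, on log2(FPKM + 1)) of 53 of the 54 members by role, with SE bars; filled points have an unadjusted limma p under 0.05 and the dotted line is the median of all genes tested, -0.04. ABI3BP lies farthest right at 1.45 and COL13A1 farthest left at -1.05, apart from the other 9 collagen chains.

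The 4 genes taken in by their symbols did not pass. MMP24-AS1 had 93.5 and 72.5 FPKM in siPCBP2 cells, against 68.1 and 67.7 FPKM in untreated cells. Its exons overlap those of a coding gene on either strand. Its log2 difference was 0.27 (adjusted p = 0.419 by limma), and it was under an unadjusted p of 0.05 after quantile normalization (0.35). Without siPCBP2 2 the difference was 0.46. ITGB1BP1, ITGB3BP and COL4A3BP had log2 differences of -0.29, 0.13 and 0.01. That of ITGB1BP1 was -0.50 without siPCBP2 1 and -0.09 without siPCBP2 2. Without these 4, the median log2 fold change of the remaining 50 members was -0.04.

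The members were moderately expressed genes on long loci. Their median level was 24.7 FPKM, against 17.0 FPKM over all genes tested, and their median gene span 85.1 kb, against 33.6 kb. Together they held 0.645% and 0.602% of the summed FPKM in siPCBP2 cells, against 0.633% and 0.636% in untreated cells. The median absolute log2 fold change was 0.22 for members and 0.19 for all genes tested. In GENCODE 29, exons of 4 members, ADAM15, LOXL2, MMP24-AS1 and TIMP2, overlap those of another coding gene on the same strand, and exons of 10 overlap a coding gene on the other strand. Whether fragments were counted by strand is not given in the sources, so reads of such pairs may not be told apart.

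**Figure D4:**
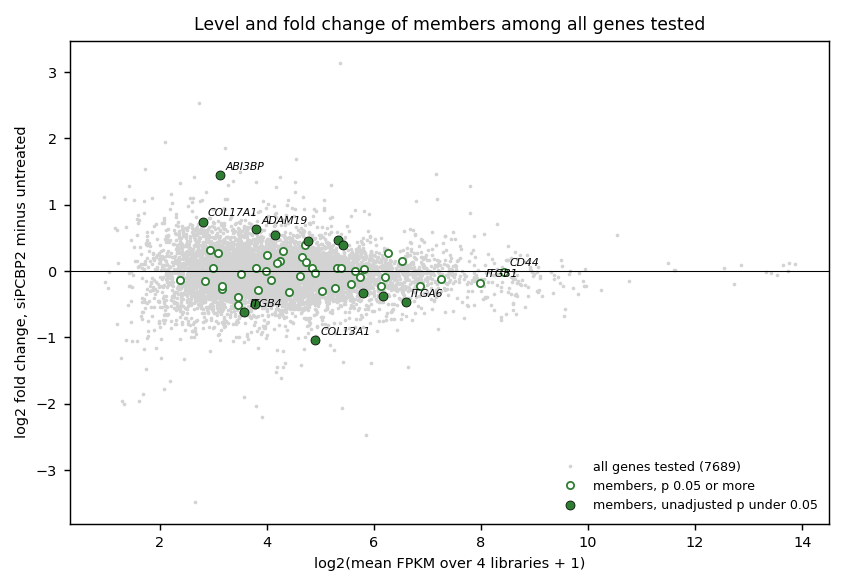
Mean level as log2(mean FPKM + 1) over 4 libraries against log2 fold change (siPCBP2 minus untreated) for the 7689 genes tested (grey) and the members (green, filled at an unadjusted p under 0.05). ABI3BP at 1.45 and COL13A1 at -1.05 lie farthest from 0 among the members, and CD44 and ITGB1 lie near 0 at the right.

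The libraries of the silenced group differed from each other along these genes. Of the 54 members, 44 (81.5%) were higher in siPCBP2 1 than in siPCBP2 2, against 58.7% of all listed genes, with a median log2 difference of 0.13, against 0.05. The summed FPKM of all listed genes was also higher in siPCBP2 1, 378204 against 352964. What part of the members' shift goes with this difference in scale was not tested. Between untreated 1 and untreated 2, 26 of 54 were higher in untreated 1, with a median difference of -0.01. The largest ratios between the siPCBP2 libraries were 1.98 for ADAM10, 1.69 for ADAMTSL5 and 1.60 for CD44. The members' median log2 fold change was -0.077 without siPCBP2 1 and 0.063 without siPCBP2 2. It was -0.052 without untreated 1 and -0.014 without untreated 2. Medians over all genes in these fits are not given here, so the shifts cannot be called particular to the members.

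**Figure D5:**
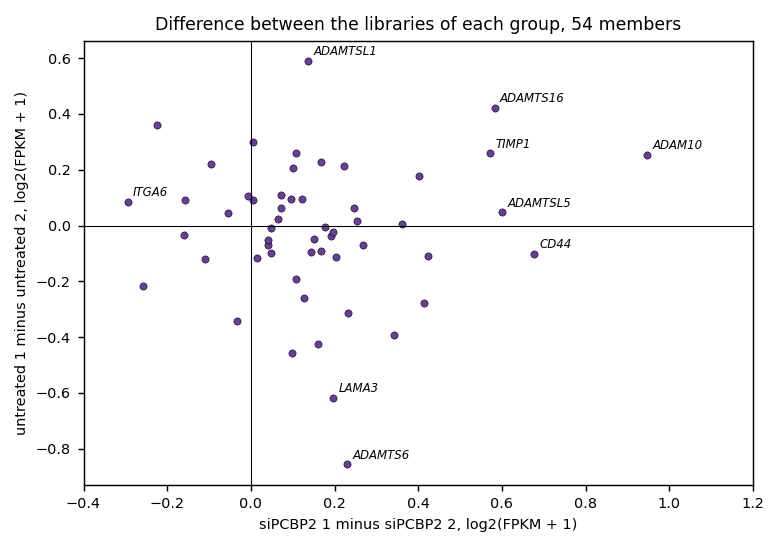
Difference between the libraries of a group on log2(FPKM + 1) for the 54 members, siPCBP2 1 minus siPCBP2 2 across and untreated 1 minus untreated 2 upwards; each point is a gene. Of the points, 44 lie right of 0, ADAM10 and CD44 farthest to the right, while they spread about 0 upwards.

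Other genes of the pathway, in lists chosen with earlier results of these data known and without the members, gave no gene past an adjusted p of 0.05 by limma. Of 27 adhesion adaptors and kinases that link integrins to actin, 2 were lower and 2 higher at an unadjusted p under 0.05, which is 7.41% each way, against 9.73% lower and 5.67% higher over all genes tested. PARVA, the parvin that binds integrin-linked kinase, had 14.7 and 15.5 FPKM in siPCBP2 cells, against 25.9 and 26.7 FPKM in untreated cells (log2 fold change -0.76, SE 0.12). LIMS1, the PINCH adaptor of the same kinase complex, had 22.2 and 17.8 FPKM in siPCBP2 cells, against 9.30 and 10.3 FPKM in untreated cells (log2 fold change 0.95, SE 0.16). FERMT2, kindlin 2, which activates integrins, had 35.9 and 32.9 FPKM in siPCBP2 cells, against 26.0 and 27.4 FPKM in untreated cells, and CSRP1 averaged 13.2 ± 0.0275 and 17.2 ± 1.85 FPKM. Adjusted p-values by limma of these 4 genes were 0.151, 0.151, 0.268 and 0.316 in the order named. None of 11 hemidesmosome and tetraspanin partners was under an unadjusted p of 0.05, nor was any of 21 procollagen-modifying genes except P3H2, a prolyl hydroxylase, with 19.4 and 20.1 FPKM in siPCBP2 cells, against 14.4 and 16.0 FPKM in untreated cells.

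Of 21 other matrix and matricellular genes, 5 were lower (23.8%, against 9.73% of all genes) and 3 higher (14.3%, against 5.67%) at an unadjusted p under 0.05, and the median log2 fold change was -0.01. EFEMP1, a fibulin, had 15.4 and 16.1 FPKM in siPCBP2 cells, against 20.7 and 23.0 FPKM in untreated cells. THBS1, thrombospondin, averaged 103.5 ± 1.51 and 189.8 ± 0.583 FPKM, and CTGF 38.6 ± 0.879 and 69.95 ± 3.51 FPKM. MFGE8, an integrin alpha V ligand, had 24.3 and 23.3 FPKM in siPCBP2 cells, against 16.5 and 18.2 FPKM in untreated cells. TINAGL1 averaged 40.0 ± 2.41 and 29.7 ± 2.21 FPKM, and the heparan sulfate proteoglycan SDC4 127.7 ± 1.65 and 104.9 ± 7.03 FPKM. Among 7 hyaluronan genes and CD44 linkers, 1 was lower, radixin, RDX, with 53.1 and 72.5 FPKM in siPCBP2 cells, against 85.1 and 91.4 FPKM in untreated cells. Among 15 genes of TGF-beta signalling, 1 was lower and 1 higher. The SMAD repressor SKIL averaged 9.48 ± 2.55 FPKM in siPCBP2 cells and 18.7 ± 3.37 FPKM in untreated cells, and the receptor TGFBR1 25.0 ± 6.05 and 14.9 ± 5.23 FPKM. Of 9 regulators of MMPs and ADAMs, 1 was higher, CD55, with 71.8 and 77.4 FPKM in siPCBP2 cells, against 52.3 and 54.3 FPKM in untreated cells.

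In the authors' deposited table, 8 members (14.8%) had a p under 0.05, against 8.48% of all listed genes. Of these 8, 5 were also under 0.05 by limma: ABI3BP, ADAM19, COL12A1, COL13A1 and ITGA5. The other members under 0.05 by limma had authors' p-values from 0.0676 for ADAMTS9 to 0.994 for ITGB4, with 0.188 for ITGA6. The lowest q of a member in the authors' deposited table was 0.517, for ITGA2, whose log2 difference of -0.28 was not under an unadjusted p of 0.05 by limma. The authors' deposited table gives the fold as untreated over siPCBP2, 2.11 for COL13A1 and 0.320 for ABI3BP.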

How the data were processed

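RNA of MDA-MB-231 cells was bead-selected for poly(A) tails, primed with random hexamers and read in paired ends, per the labels' protocols. FastQC 0.11.2, Trimmomatic 0.36, HISAT2 2.0, bedtools 2.26.0 and hg38 stand in the submitters' processing notes; for quantifier, annotation, gene filter and strandedness, the entry is not given in the sources used here. All deposited values per library, never negative and not whole, were taken as FPKM made by the authors. The deposited fold is the ratio of the untreated mean plus 0.1 over the siPCBP2 mean plus 0.1 for all 7698 genes (relative tolerance 1e-06). The authors' p-value and q-value stand beside it; how they were tested is not stated. Because FPKM is relative and depth is unknown, no counting error was given.

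The 7689 genes that reached 1 FPKM in 2 or more libraries were tested in limma 3.58.1 (R 4.3.3) on log2(FPKM + 1), siPCBP2 minus untreated, two-sided, with empirical Bayes moderation, a mean-variance trend and Benjamini-Hochberg adjustment over all genes; the pseudocount understates changes of low genes. The procedure was tested on simulated data. Permuting 2 and 2 libraries exactly gives no p under 0.333 and was not done. Members and lists were chosen with earlier results of these data known. Values per library are given for members under an unadjusted p of 0.05, the 10 most abundant, all integrins and the members chosen by name, and for some others; up to 3 genes each way were named per pathway list. Alternatives were a pseudocount of 0.1, no filter, a filter of 5 FPKM, quantile normalization, a common total, no trend, the replicate number as a block and leaving out each library. Exon overlaps come from GENCODE 29, which held all 54 IDs. Of the 54 members, 1 enters the counts over all members but is not reported here by name.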

Additional observations from a re-analysis of the deposited data

How the results depend on the processing

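No alternative brought a member past an adjusted p of 0.05 by limma. The 4 genes past it over all genes tested became 2 under quantile normalization and scaling to a common total. They became 0 when the mean-variance trend was dropped, where 1220 genes had an unadjusted p under 0.05, and 0 with any library left out, where 632 to 1192 did. With the replicate number as a block the count was 0 as well, with 940 at an unadjusted p under 0.05. Members under that p were 7 higher and 6 lower, and shares of all genes each way are not given for this fit. Deviations of same-numbered libraries correlated at -0.0888, so the numbers were not taken as pairs. Of the 13 members at an unadjusted p under 0.05, 3 stayed under it in the 11 alternatives, 9 lost that call only with a library left out, and LOXL2 also otherwise. With a library left out, members lower ran from 3 to 10, members higher from 4 to 9, members without overlap from 34 to 45 (fewer libraries overlap less often), and the members' median from -0.077 to 0.063; a library left alone in its group took its spread from the remaining pair. For the fits with a library left out, shares of all genes lower, higher or without overlap are not given here. These counts therefore cannot be called particular to the members. Signs turned for TIMP3 (0.0087), COL8A1 (0.0065), TIMP2 (0.055) and CD44 (0.088) under quantile normalization, and for TIMP3 (0.0053), TIMP2 (0.032) and CD44 (0.025) under a common total. With a library left out, signs turned for 17 members, whose log2 differences ran over these ranges: ADAM10 -0.080 to 0.87, ADAMTS6 -0.11 to 0.74, ADAMTSL1 -0.017 to 0.57, ADAMTSL4 -0.29 to 0.0051, ADAMTSL5 -0.44 to 0.16, CD44 -0.35 to 0.33, COL18A1 -0.0082 to 0.089, COL4A2 -0.038 to 0.14, COL4A3BP -0.074 to 0.085, COL6A1 -0.062 to 0.36, ITGA3 -0.24 to 0.011, LAMB2 -0.28 to 0.12, LAMC1 -0.075 to 0.12, TGFBI -0.089 to 0.18, TIMP1 -0.51 to 0.062, TIMP2 -0.17 to 0.17, TIMP3 -0.11 to 0.052. The cause was not tested. ADAMTSL5 dropped out under the stricter filter. The precision that depth allows could not be set without counts.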
